A study of Rattus norvegicus with 29 samples.

Results

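The GABA-A receptor subunits described here are Gabra2, Gabra4, Gabra5, Gabrb1, Gabrb2, Gabrg1 and Gabrd, read in the shell of the nucleus accumbens in P rats, a line selected for alcohol preference. Members were all probe sets whose symbol in the platform's probe table was exactly one of these 7 names, whatever their values. They are 7 of the 14218 genes named by a probe set with a single symbol, and they had 10 of the 31099 probe sets on the array: 1 each for Gabra2, Gabra4, Gabra5, Gabrb1 and Gabrg1, 2 for Gabrb2 and 3 for Gabrd. All 10 passed the filter on dim probe sets (a mean over all arrays above 6.86 on the log2 scale) and stood among the 21729 tested. Of the remaining GABA-A and rho subunit genes listed for comparison, 9 of 12 had a probe set with that single symbol; the other 3 are not analysed here.

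The study set 3 groups of P rats side by side, all of the same line: 9 arrays of rats with water only, 10 of rats with limited access to ethanol and 10 of rats with continuous ethanol. The design text names 10 samples in each group, and 1 water sample is not analysed here. Sex, age, ethanol intake, the length of exposure and the interval between the last access and tissue collection are not given here. Nothing in the labels says that samples are separate animals, so each p reflects only variation among the samples at hand, which may be technical. Every value below is a log2 expression value, where a difference of 1 is a doubling, and all levels come from hybridisation to different probes, so the level of one probe set is not set against that of another.

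The GABA-A receptor is a pentameric chloride channel opened by GABA and the main carrier of fast inhibition in the brain. Alpha and beta subunits form the GABA sites, a gamma subunit with a suitable alpha forms the benzodiazepine site, and the delta subunit takes the place of gamma in receptors outside the synapse that respond to ambient GABA and neurosteroids and carry tonic current. In the striatum, where the medium spiny neurons are themselves GABAergic, alpha4 with delta and alpha5 receptors are known for tonic inhibition, alpha2 is an abundant synaptic alpha subunit, and the Gabra2 locus has been studied in relation to alcohol dependence. Gabra2, Gabra4, Gabrb1 and Gabrg1 lie in 1 cluster on rat chromosome 14, in the order Gabrb1, Gabra4, Cox7b2, Gabra2, Gabrg1 in the RefSeq annotation of assembly GRCr8. Gabra5 lies on chromosome 1, Gabrb2 on chromosome 10 beside Gabra6, and Gabrd on chromosome 5 outside any subunit cluster.

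The promoters of 2 pairs are shown because Gabra4 and Gabra5 moved together across arrays although they lie on different chromosomes, while Gabrb1 and Gabrb2, the beta subunits, share a palindromic stretch and did not move together. RefSeq promoter windows of build GRCr8 were held for 6 of the 7 genes, and the 250 bases before each start are given 5′ to 3′ on the gene's own strand. Gabra2 had no entry. Capitals mark the longest stretch shared within a pair, which in Gabrb1 includes 1 further base because the stretch also matches there on the other strand. Gabra4 stands at chr14:36944497-36944746 on the plus strand, Gabra5 at chr1:117516607-117516856 on the minus strand, Gabrb1 at chr14:36902894-36903143 on the minus strand and Gabrb2 at chr10:27439543-27439792 on the plus strand.
Gabra4: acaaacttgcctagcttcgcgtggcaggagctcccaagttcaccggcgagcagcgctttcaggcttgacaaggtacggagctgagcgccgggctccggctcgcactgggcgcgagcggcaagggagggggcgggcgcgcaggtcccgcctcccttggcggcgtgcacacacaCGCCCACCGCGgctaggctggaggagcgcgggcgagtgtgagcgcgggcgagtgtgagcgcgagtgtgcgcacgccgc
Gabra5: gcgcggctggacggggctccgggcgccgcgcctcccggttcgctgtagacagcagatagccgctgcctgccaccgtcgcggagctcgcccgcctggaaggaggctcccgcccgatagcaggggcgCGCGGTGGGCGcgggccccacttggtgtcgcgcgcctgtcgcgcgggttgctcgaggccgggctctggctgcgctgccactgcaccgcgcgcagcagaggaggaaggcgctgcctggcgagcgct
Gabrb1: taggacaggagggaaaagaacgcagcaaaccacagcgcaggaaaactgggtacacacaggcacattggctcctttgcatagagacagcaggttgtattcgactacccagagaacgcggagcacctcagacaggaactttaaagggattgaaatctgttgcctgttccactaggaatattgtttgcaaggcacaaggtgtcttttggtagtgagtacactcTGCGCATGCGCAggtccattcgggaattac
Gabrb2: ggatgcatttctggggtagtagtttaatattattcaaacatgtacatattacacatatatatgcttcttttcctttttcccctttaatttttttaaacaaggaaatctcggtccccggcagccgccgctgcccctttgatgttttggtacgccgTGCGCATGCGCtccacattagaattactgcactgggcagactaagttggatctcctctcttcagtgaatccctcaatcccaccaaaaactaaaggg

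The Gabra4 and Gabra5 windows shared the 11 bases CGCGGTGGGCG, on opposite strands, at 78 to 68 bases before the Gabra4 start and 125 to 115 bases before the Gabra5 start. On either strand, this stretch occurred in 0.0926% of the 33469 promoters in the table. A shared stretch of this length was not particular to that pair: Gabra4 and Gabrd, which did not pass in the correlations below, shared the 11 bases GAGCGCCGGGC, present in 0.0777% of promoters. Both windows were rich in G and C, at 71.6% for Gabra4 and 76.4% for Gabra5, as was that of Gabrd at 74.0%, against 49.2% for Gabrb1, 43.2% for Gabrb2 and 48.4% for Gabrg1. GGGCGG, the core of the GC box, occurred on either strand once in Gabra4, once in Gabra5 and 4 times in Gabrd, with overlapping matches counted, and in none of the other 3 windows; 30.5% of all promoters held it. GCGNGGGCG, the core letters of the Egr site, occurred 2 times in Gabra4 and in none of the other 5, against 4.29% of all promoters. Gabrb1 and Gabrb2 shared TGCGCATGCGC, which holds a palindrome of the NRF1 type and was present in 0.535% of all promoters. TGACGTCA, TGANTCA and TATAAA were found in none of the 6 windows, against 1.59%, 6.34% and 12.9% of all promoters. The stretches and motifs were chosen after the sequences were seen, and a match is a string of letters, not a measured binding site.

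The tissue label was first set against markers. All 14 medium spiny neuron markers with a probe set passed the filter, among them Drd1 at a mean of 12.14, Penk at 13.54 and Ppp1r1b, which encodes DARPP-32, at 12.53. The cortical marker Slc17a7 was also present, at 11.42, and Neurod6 at 10.00. Gabra6, the subunit that marks cerebellar granule neurons, lay below the filter at a mean of 5.56 for its brighter probe set. Of the 5 cerebellar granule markers with a probe set, 3 passed, Neurod1 at 8.94, Zic2 at 8.93 and Barhl1 at 7.22. All 5 thalamic markers and 7 of 9 septal and hypothalamic markers with a probe set also passed. The markers therefore do not show tissue of other regions to be absent. Array medians ran from 8.17 to 8.21, and correlations between arrays over the tested probe sets from 0.971 to 0.997. On the second principal component, which held 16.5% of the variance, 5 arrays stood apart (water replicates 2, 5 and 6 and limited replicates 6 and 7, none of the continuous group), and water replicate 9 was least like its own group, with a median correlation of 0.979. Hybridisation batches are not given in the labels. Dissected tissue with all its cell types was measured, so fewer cells of a type and less RNA per cell cannot be told apart in any value below.

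Among the alpha subunits, Gabra2, a synaptic alpha subunit, read 9.41, 9.83 and 9.97 in the lowest, median and highest water array, 9.62, 9.76 and 10.00 in the limited group and 9.65, 9.77 and 9.99 in the continuous group. The 3 groups overlapped nearly throughout, and the low end of the water group was replicate 9. Continuous minus water was 0.03 ± 0.07 (SE), with a 95% interval of -0.11 to 0.17 and 5 of 10 arrays above the water mean. Limited minus water was 0.02 ± 0.07, and without water replicate 9 both differences changed sign, to -0.01 and -0.02.

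Gabra4, the alpha subunit that pairs with delta in striatal extrasynaptic receptors, read 9.02, 9.42 and 9.67 in water (lowest, median, highest), 9.18, 9.41 and 9.60 in limited and 9.08, 9.27 and 9.71 in continuous arrays. The continuous group held the highest array of all, replicate 4, while its median was the lowest of the 3. Differences were -0.02 ± 0.07 for continuous minus water, 0.05 ± 0.07 for limited minus water and 0.08 ± 0.07 for limited minus continuous, the last with 8 of 10 limited arrays above the continuous mean and an interval of -0.07 to 0.22. The 3′ minus 5′ signal of control transcripts averaged 0.504 in limited, 0.535 in water and 0.566 in continuous arrays, and with it as a covariate limited minus continuous of Gabra4 was 0.01.

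Gabra5, an extrasynaptic alpha subunit with a gamma partner, read 10.14, 10.49 and 10.63 in water, 10.39, 10.48 and 10.71 in limited and 10.20, 10.43 and 10.87 in continuous arrays. Medians differed by less than the spread within any group, and the lower water mean came with 4 water arrays below every limited array. Continuous minus water was 0.10 ± 0.07 (interval -0.05 to 0.25, 8 of 10 arrays above, adjusted p = 0.486 from limma) and limited minus water 0.10 ± 0.07 (9 of 10 arrays above, adjusted p = 0.972). In the 5 arrays apart on the second component, Gabra5 lay 0.10 below its group means on average, with all 5 below, and without those arrays both differences were 0.02. With array SD as a covariate and no array left out, continuous minus water was 0.02 and limited minus water 0.08. The part of array SD, or of whatever sets those 5 arrays apart, in this result was not tested.

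Of the beta subunits, Gabrb1 read 12.14, 12.46 and 12.67 in water, 12.33, 12.49 and 12.66 in limited and 12.21, 12.42 and 12.47 in continuous arrays. The highest continuous array lay below the limited median, and the ranges still overlapped. Limited minus continuous was 0.10 ± 0.05, with an interval of -0.01 to 0.21, 9 of 10 limited arrays above the continuous mean, an unadjusted p of 0.0764 and an adjusted p of 0.559 from limma. Against water, the continuous group stood at -0.04 ± 0.06 and the limited group at 0.06 ± 0.06, so the 2 ethanol groups lay on either side of water without either difference passing the test. Without water replicate 9, the lowest water array, these values were -0.08 and 0.02.

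Gabrb2 was read by 2 probe sets. The brighter, 1377773_at, read 12.65, 12.87 and 13.10 in water, 12.72, 12.93 and 13.05 in limited and 12.72, 12.83 and 13.00 in continuous arrays, with differences of -0.05 ± 0.05 (continuous minus water), 0.03 ± 0.05 (limited minus water) and 0.08 ± 0.05 (limited minus continuous). The dimmer, 1369818_at, read 7.03, 8.29 and 8.67 in water, 7.84, 8.32 and 8.68 in limited and 7.86, 8.34 and 8.61 in continuous arrays. Its lowest water value belonged to replicate 9, and the next lowest was 7.92. Both ethanol groups were 0.19 ± 0.14 above water for this probe set, with upper bounds of 0.47, and without water replicate 9 both differences were 0.05. Without the 5 arrays apart they were larger, at 0.27 for continuous and 0.33 for limited minus water. The 2 Gabrb2 probe sets were only weakly related across arrays (r = 0.24, rho = 0.22, permutation adjusted p = 0.313 and 0.270), and their continuous minus water differences had opposite signs.

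Gabrg1, a gamma subunit, had the smallest differences from water of the 10 probe sets in both comparisons with it. It read 9.37, 9.54 and 9.69 in water, 9.27, 9.55 and 9.68 in limited and 9.35, 9.48 and 9.77 in continuous arrays. All 3 differences were within 0.02 of 0, each with SE 0.05, and the widest interval ran from -0.12 to 0.10.

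Gabrd, the delta subunit of extrasynaptic receptors, was read by 3 probe sets, of which 1395269_s_at and 1395270_x_at carry Affymetrix suffixes for probes that may also match other transcripts. The first, 1395269_s_at, read 10.54, 10.61 and 10.71 in water, 10.44, 10.57 and 10.81 in limited and 10.43, 10.57 and 10.70 in continuous arrays, and 1369048_at read 10.43, 10.53 and 10.65, then 10.25, 10.41 and 10.82, then 10.34, 10.44 and 10.62. For both, the ethanol medians lay below the water median, and the limited group held both the top and, for 1369048_at, the bottom array. Continuous minus water was -0.05 ± 0.04 for 1395269_s_at and -0.08 ± 0.06 for 1369048_at, the latter with an interval of -0.21 to 0.04, 7 of 10 arrays below the water mean and an adjusted p of 0.480 from limma. Limited minus water was -0.04 ± 0.04 and -0.06 ± 0.06.

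The third Gabrd probe set, 1395270_x_at, read 7.50, 7.78 and 7.99 in water, 7.55, 7.81 and 8.25 in limited and 7.58, 7.68 and 7.82 in continuous arrays. Its continuous values were tightly grouped, with an SD of 0.061 against 0.144 in water and 0.222 in limited arrays. Limited minus continuous was 0.14 ± 0.07, with an unadjusted p of 0.0559, the smallest of any member in any comparison, and an adjusted p of 0.541 from limma. All 3 Gabrd probe sets were higher in the arrays apart on the second component, by a mean of 0.10 (1395269_s_at), 0.17 (1369048_at) and 0.17 (1395270_x_at) over their group means, and those arrays were 3 of the water and 2 of the limited group. Without them, continuous minus water was -0.04 for 1369048_at, and limited minus continuous was 0.07 for 1395270_x_at, which was 0.08 with the 3′ minus 5′ signal and 0.04 with array SD as a covariate. Limited minus water then lay farther from 0, at -0.08 for 1395269_s_at and -0.09 for 1369048_at, and limited minus continuous changed sign for both, from 0.00 to -0.04 and from 0.02 to -0.05. Whether the same feature sets both the arrays and the Gabrd values was not tested.

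**Figure D1:**
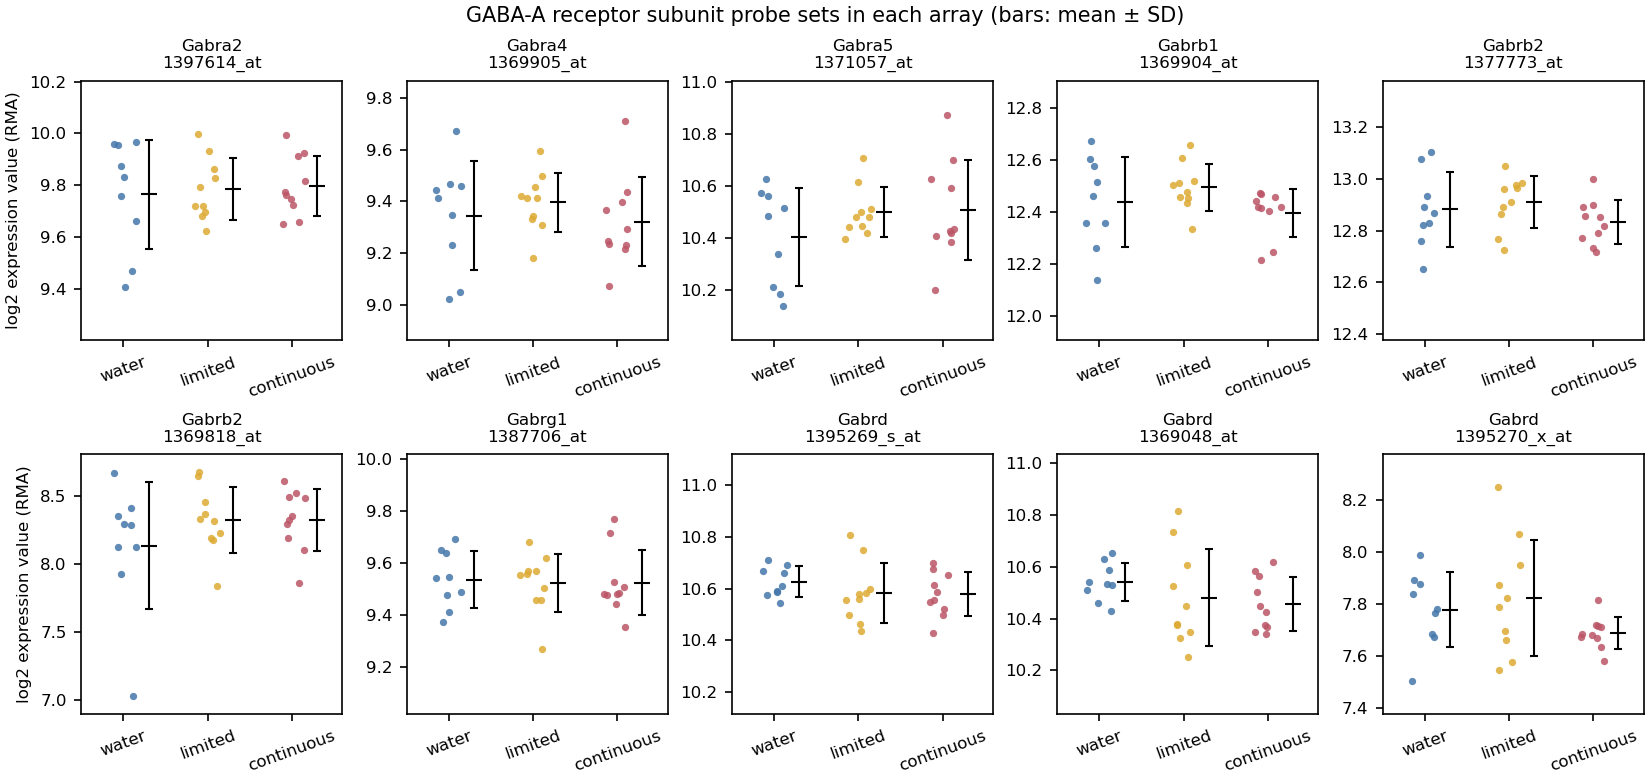
Log2 expression value (y axis) of each GABA-A receptor subunit probe set in the water, limited and continuous arrays (x axis). Each point is 1 array and the bars give mean ± SD over 9, 10 and 10 arrays. The groups overlap in all 10 panels, and the lone low point of Gabrb2 1369818_at at 7.03 is water replicate 9.

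Continuous ethanol against water, the first question of the design, gave no called member. Of the 10 probe sets, 0 passed an adjusted p of 0.05 in limma, where 0.152% of all tested probe sets passed (33 of 21729), and 0 reached an unadjusted p under 0.05, where 16.1% of all did. Of the members, 3 were positive and 7 negative, with a median of -0.03 beside 0.00 over all probe sets tested. Differences ran from -0.09 for Gabrd 1395270_x_at to 0.19 for Gabrb2 1369818_at, and the bound farthest from 0 was 0.47. None of the 10 had groups that did not overlap, against 0.0322% of all.

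Limited ethanol against water likewise gave 0 of 10 members past the threshold in limma, with 0% of all probe sets passing, and 0 of 10 at an unadjusted p under 0.05, against 4.44% of all. Here 7 were positive and 3 negative, with a median of 0.04 beside 0.00 over all. Gabra5 and Gabrb2 1369818_at had the largest positive values and Gabrd 1369048_at the lowest, -0.06. The 2 comparisons with water share the water arrays, so their values for a member are not independent.

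Between the 2 ethanol schedules, 0 of 10 members passed in limma (0.0046% of all, 1 probe set), and 0 reached an unadjusted p under 0.05 (9.31% of all). Limited minus continuous was positive for 7 and negative for 3, with a median of 0.01 beside -0.01 over all. The 3 highest were Gabrd 1395270_x_at (0.14), Gabrb1 (0.10) and, at 0.08, Gabrb2 1377773_at with Gabra4. A moderated F test over the 3 groups also called 0 of 10, with 0.0828% of all called. A p that misses the threshold does not show equal levels, and the intervals bound the differences: apart from Gabrb2 1369818_at, the bound farthest from 0 in the 3 comparisons was 0.27, for Gabrd 1395270_x_at.

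**Figure D2:**
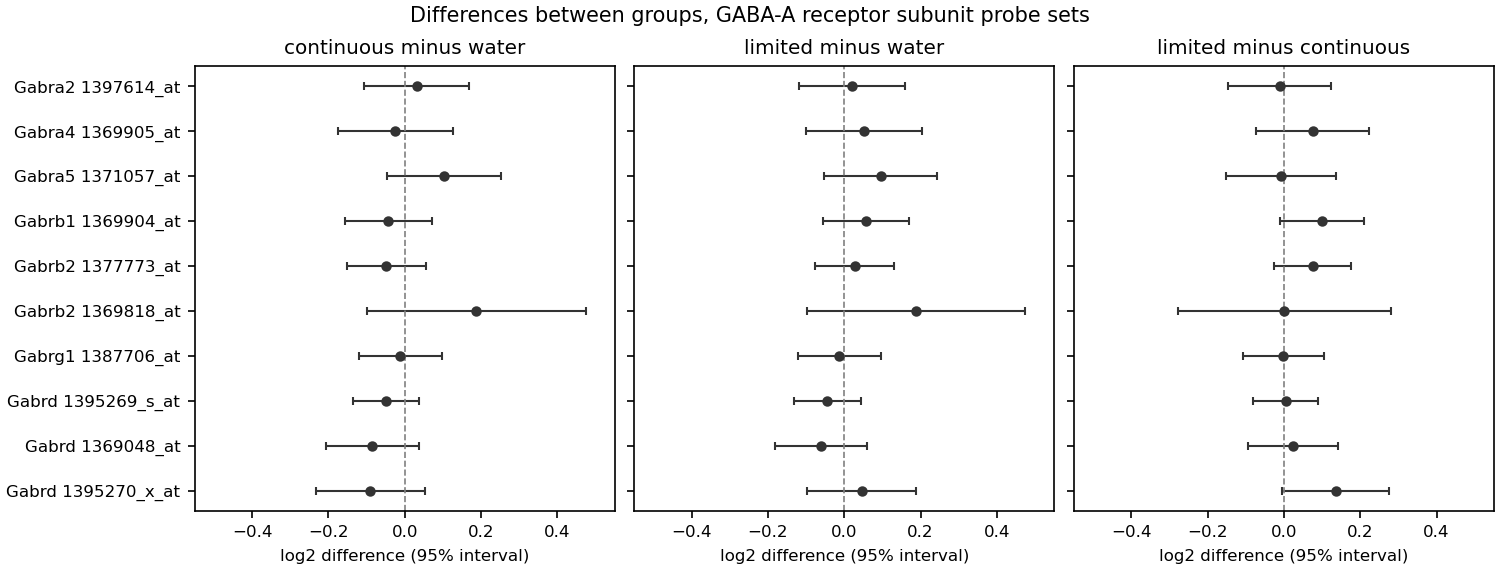
Difference of group means on the log2 scale (x axis) for each GABA-A receptor subunit probe set (y axis) in the 3 comparisons, with 95% intervals from limma over 29 arrays. Every interval includes 0, and the widest belong to Gabrb2 1369818_at, reaching 0.47 against water.

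Members were not equally steady within groups. The median SD over the 10 probe sets was 0.159 in water, 0.115 in limited and 0.109 in continuous arrays, beside 0.120, 0.111 and 0.104 over all tested probe sets. The SD was largest in the water group for 5 of 10 members and for 43.4% of all tested probe sets. This spread was not shared by all subunits. Water replicate 9 gave the lowest water value of Gabra2, Gabrb1 and Gabrb2 1369818_at and the highest of Gabra5 and Gabrd 1395270_x_at.

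Deviations from the group means were then compared between subunits over the 29 arrays, with 1 probe set a gene (the brightest). Of 21 pairs, only Gabra4 with Gabra5 passed, with r = 0.74 and rho = 0.71 (permutation p = 3e-05, adjusted 0.00063 for r and 0.00294 for rho). In the ethanol groups the same arrays marked both ends: continuous replicate 4 was highest for both genes in its group (9.71 and 10.87) and replicate 7 lowest (9.08 and 10.20), and limited replicates 10 and 9 were highest and lowest for both. The water group did not share its ends: Gabra4 was lowest in replicate 2 and highest in replicate 5, Gabra5 lowest in replicate 7 and highest in replicate 9, and replicate 5 lay below the water mean of Gabra5. Within groups, r was 0.65 in water, 0.78 in limited and 0.84 in continuous arrays. Without the 2 arrays farthest from the median it was 0.65, and without the 5 arrays apart 0.87 over 24 arrays. With the cortical marker score, the medium spiny neuron score or the 3′ minus 5′ signal of control transcripts removed, r was 0.69, 0.76 and 0.73. The astrocyte score, which both genes ran against (r = -0.59 for Gabra4 and -0.72 for Gabra5), was not removed. Its part in the relation of the pair was not tested.

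The other 20 pairs did not pass. The median r of all 21 pairs was 0.05 and the lowest -0.25, for Gabra5 with Gabrb1. Gabra4 and Gabrd, whose proteins share extrasynaptic receptors, had r = 0.38 (permutation adjusted p = 0.247). Gabra4 and Gabrb1, neighbours on chromosome 14, had r = 0.14, and Gabra2 and Gabrg1, also neighbours, r = -0.09. Within Gabrd, 1395269_s_at and 1369048_at agreed closely (r = 0.84, permutation adjusted p = 4e-05 over the 4 pairs of probe sets of 1 gene), whereas 1395270_x_at had r = 0.46 and 0.47 with them (permutation adjusted p = 0.0544 for both), and 0.19 and 0.20 without the 2 farthest arrays.

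**Figure D3:**
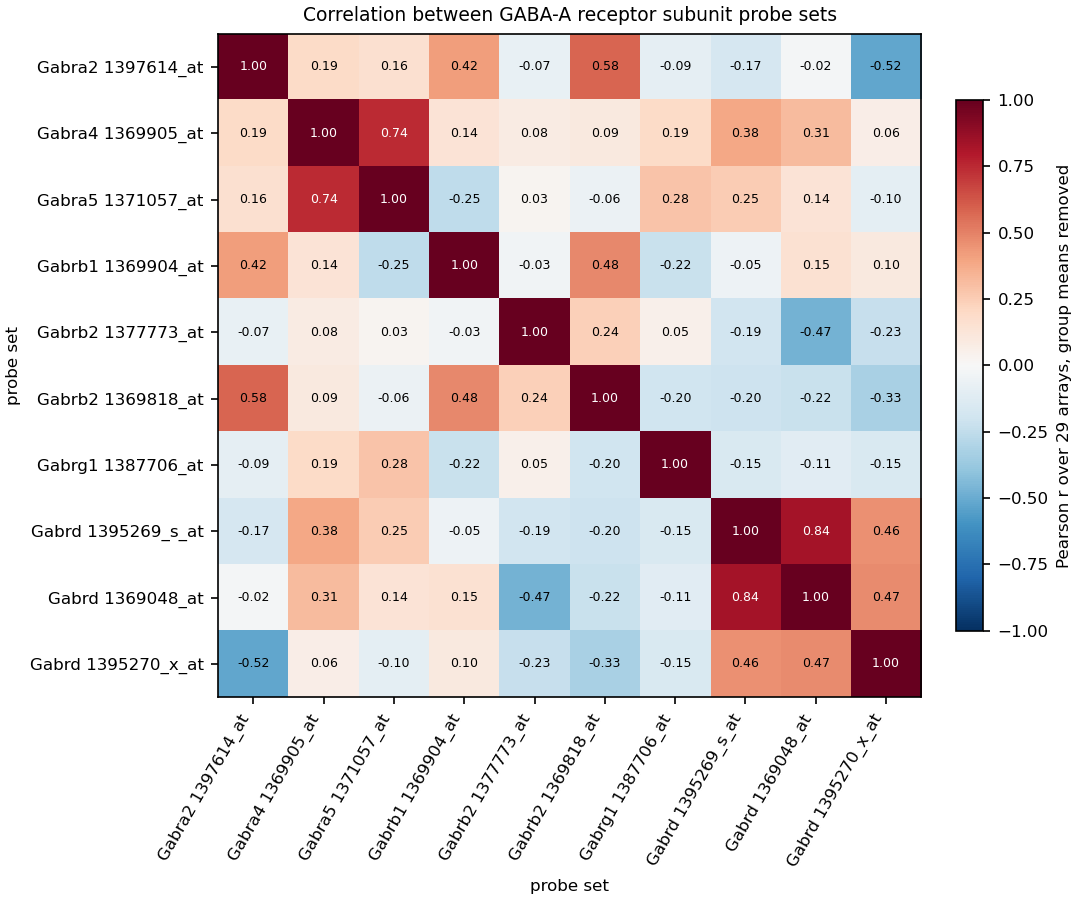
Pearson r between GABA-A receptor subunit probe sets over 29 arrays after group means were removed (rows and columns are probe sets, colour and number give r). Gabra4 with Gabra5 at 0.74 and the Gabrd pair 1395269_s_at and 1369048_at at 0.84 stand out, and r with Gabrg1 is nowhere above 0.28.

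Because bulk tissue mixes cell types, each subunit was set against 13 marker scores (the mean log2 deviation of a list's markers in an array) and against the 3′ minus 5′ signal and the SD of the array, giving 105 relations, of which 12 passed after adjustment for r. These relations were computed after the data had been seen, and they describe arrays, not cells. Gabra4 followed the medium spiny neuron score (r = 0.60, rho = 0.55, permutation adjusted p = 0.0138 and 0.0240), with all 14 markers positive, from Ppp1r1b at 0.10 to Pdyn, the prodynorphin gene, at 0.71. It ran against the astrocyte score (r = -0.59, rho = -0.65, permutation adjusted p = 0.0335 and 0.0109).

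Gabra5 ran against the astrocyte score more closely (r = -0.72, rho = -0.76, permutation adjusted p = 0.00385 and 0.00105), with all 11 astrocyte markers negative. It also ran against the oligodendrocyte precursor score (r = -0.69), with all 5 markers negative. The septal and hypothalamic score gave r = -0.58, with 6 of 7 markers negative and Lhx2 at 0.26. The microglia score also gave r = -0.58, with 9 of 10 markers negative and Cx3cr1 at 0.10. With the cortical pyramidal score r was 0.52 (permutation adjusted p = 0.0267), but only 6 of 9 markers were positive. Among those, Neurod6, a transcription factor of cortical pyramidal neurons, reached 0.85, and Slc17a7, the vesicular glutamate transporter VGLUT1, 0.44.

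Gabrb2 1377773_at followed the striatal interneuron score (r = 0.74, rho = 0.65, permutation adjusted p = 0.0021 and 0.0091), with all 8 markers positive, from Th at 0.02 to Slc5a7, the choline transporter of cholinergic interneurons, at 0.65. Without the 2 farthest arrays r was 0.60, and without the 5 arrays apart 0.65. The dimmer Gabrb2 probe set, 1369818_at, had r = 0.24 with 1377773_at and was not tested against the scores. The relation is therefore given for 1377773_at only, not for the gene. Gabrd followed the cortical pyramidal score (r = 0.58, permutation adjusted p = 0.0267, all 9 markers positive, Slc17a7 highest at 0.62) and ran against the thalamic score (r = -0.70, permutation adjusted p = 0.00385, all 5 markers negative, Tcf7l2 lowest at -0.70) and the oligodendrocyte score (r = -0.54, all 9 markers negative). Gabra2 was related to the SD of the array (r = 0.58, permutation adjusted p = 0.0138) and to no marker score past the threshold for r. With the endothelial and mural score it had r = -0.46 and rho = -0.52 (permutation adjusted p = 0.101 and 0.0408), with 12 of 13 markers negative. Neither Gabrb1 nor Gabrg1 had a relation that passed. No member passed with the 3′ minus 5′ signal, a measure of RNA degradation. The 12 relations kept their sign without the 2 farthest arrays and without the 5 arrays apart.

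**Figure D4:**
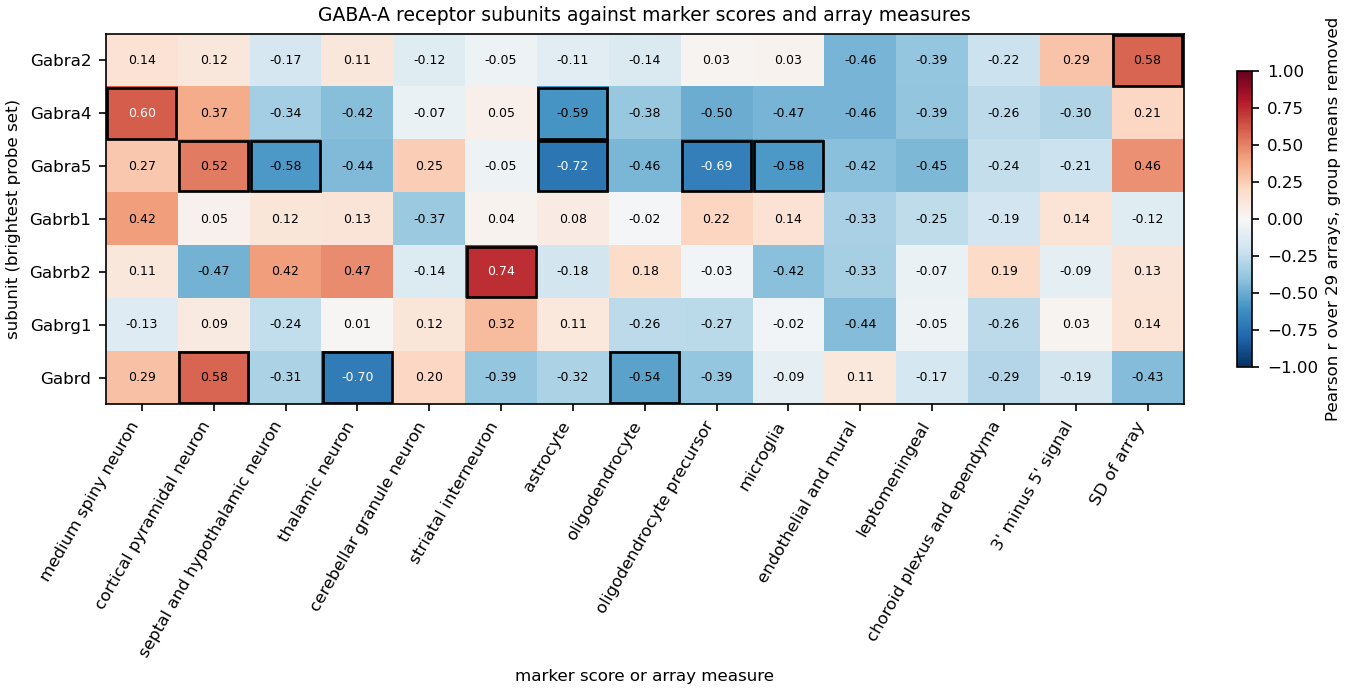
Pearson r of each GABA-A receptor subunit (rows, brightest probe set) with marker scores and array measures (columns) over 29 arrays, group means removed. Black frames mark the 12 of 105 relations with an adjusted permutation p under 0.05; Gabra5 has negative r with the astrocyte score (-0.72) and Gabrb2 positive r with the interneuron score (0.74).

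**Figure D5:**
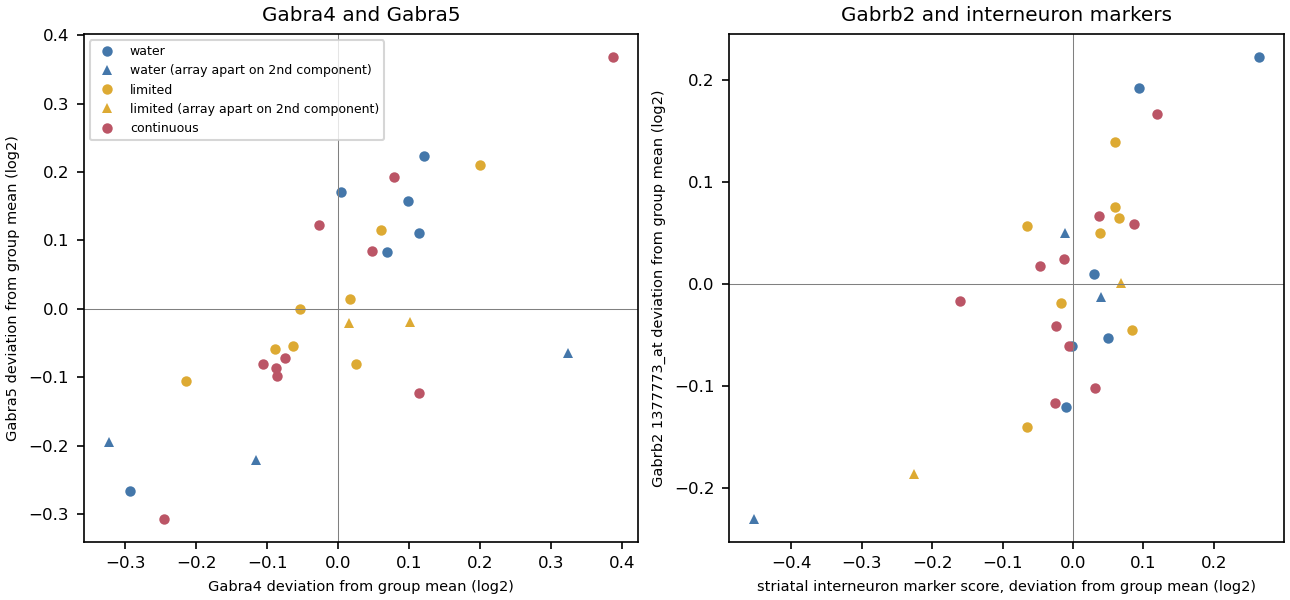
Left, Gabra5 against Gabra4, and right, Gabrb2 1377773_at against the striatal interneuron marker score, as log2 deviations from the group mean, with 1 point an array, colours for groups and triangles for the 5 arrays apart on the second component. Gabra4 and Gabra5 rise together (r = 0.74), and the low left point in the right panel is a water array.

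Genes most like each subunit were taken as the 5 of highest r among 11327 other genes, as a description only, since all values come from the same arrays. For Gabra4 these were Dock3 (r = 0.84), Dgkb, a diacylglycerol kinase, Dhx40, Npas2 and Ccsap. For Gabra5 they were Dclk1 (0.86), the ephrin receptor gene Epha7, Neurod6, the amino acid transporter gene Slc6a15 and Cbfa2t2. Gabra2 was closest to Raph1 (0.87), the cold-inducible RNA-binding protein gene Cirbp, Celf4, Zfp354c and Myo5a. Gabrb1 was closest to Chst2 (0.76), Srp72, Efna5, Bcr and Usp29, and Gabrb2 to Esrrg (0.80), Calcr, Epm2aip1, Edil3 and Bcat1. Gabrg1 was closest to Zfp652 (0.78), Sgcb, Pef1, Rnaseh2b and Atp5f1a, and Gabrd to the potassium channel gene Kcnh3 (0.80), Fmnl1, Btbd10, Ccne1 and Cyp46a1, the brain cholesterol hydroxylase. The 95th percentile of r over all genes lay between 0.43 and 0.56 for the 7 members.

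Around the receptor, the other genes of the pathway gave no call in limma either. Of all tested probe sets, 0.152% were called in continuous minus water, 0% in limited minus water and 0.0046% in limited minus continuous. Of the other subunits only Gabra3 passed the filter, at 7.91 in water, 8.06 in limited and 7.92 in continuous arrays, with limited minus water at 0.15 ± 0.08 and 9 of 10 arrays above the water mean (adjusted p = 0.972). Gabrq, at 6.83, lay just under the filter. Of 26 tested anchoring, trafficking and accessory genes 0 passed in any comparison, and in continuous minus water 2 were positive and 5 negative at an unadjusted p under 0.05, against 1 positive in limited minus water and 1 negative in limited minus continuous. Over all tested probe sets the shares at that p were 16.1%, 4.44% and 9.31% in these 3 comparisons. The 7 included Lhfpl3 (0.32 ± 0.10, all 10 arrays above the water mean, adjusted p = 0.155 from limma), a relative of the GABA-A receptor accessory protein Lhfpl4, and Trak1, a kinesin adaptor (-0.13 ± 0.05, all 10 arrays below, adjusted p = 0.198). Lhfpl3 stood at -0.26 ± 0.10 in limited minus continuous, where Insyn1, the inhibitory synaptic factor, stood at 0.14 ± 0.07. Limited minus water was 0.06 ± 0.03 for Ubqln1, which binds GABA-A subunits and stabilises them, and 0.11 ± 0.06 for Mdga1.

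Of 10 genes of GABA synthesis, uptake, breakdown and GABA-B receptors, 0 passed in any comparison at either threshold. Over all tested probe sets the shares at an unadjusted p under 0.05 were 16.1% (continuous minus water), 4.44% (limited minus water) and 9.31% (limited minus continuous). Gad1, which makes GABA, stood at 0.06 ± 0.06 in continuous minus water with 9 of 10 arrays above the water mean, and Slc32a1, the vesicular GABA transporter, at 0.09 ± 0.07. Slc6a13, a GABA transporter that also served as a leptomeningeal marker, stood at -0.23 ± 0.15 in limited minus water, where Gabbr2 stood at 0.05 ± 0.06. The leptomeningeal score ran from -0.24 to 0.93 in water and from -0.34 to 0.65 in limited arrays, and its part in the Slc6a13 value was not tested. Abat, which breaks GABA down, and Gad1 stood at -0.05 ± 0.05 and -0.04 ± 0.05 in limited minus continuous.

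Of 9 chloride transporter genes and their regulators 0 passed, while 2, both positive, had an unadjusted p under 0.05 in limited minus water (4.44% of all tested) and 0 in continuous minus water (16.1%) and limited minus continuous (9.31%). The 2 were the chloride-proton exchanger gene Clcn3 (0.07 ± 0.03, 10 of 10 arrays above) and the kinase gene Stk39 (0.07 ± 0.04). In continuous minus water Slc4a3, an anion exchanger, stood at -0.09 ± 0.05 and Clcn3 at 0.06 ± 0.03, and in limited minus continuous Wnk1 stood at -0.05 ± 0.03 and Slc4a3 at 0.04 ± 0.05. Of 7 neurosteroid and benzodiazepine-site ligand genes 0 passed. Akr1c14, the 3-alpha-hydroxysteroid dehydrogenase that makes allopregnanolone, a neurosteroid to which delta receptors are sensitive, stood at -0.29 ± 0.14 in continuous and -0.30 ± 0.14 in limited minus water (unadjusted p = 0.0468 and 0.0386, adjusted p = 0.303 and 0.972 from limma), with the water arrays shared. Dbi, the diazepam binding inhibitor, stood at 0.09 ± 0.06 in continuous minus water and -0.10 ± 0.05 in limited minus continuous, where Srd5a3 stood at -0.06 ± 0.04, and Acbd3 stood at 0.07 ± 0.04 in limited minus water.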

How the data were processed

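RNA of the nucleus accumbens shell was hybridised to Affymetrix rat arrays. The authors used RMA (background correction, quantile normalization and probe set summary), per the submitters' processing notes, and deposited log2 values; the base was read from the values, and the software version is not given in the sources used here. Since RMA makes array distributions alike, a shift common to all transcripts is not measured. Arrays carry no read depth; their number limits the precision.

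The 57 control probe sets and the dimmest 30% by mean were left out. All 29 arrays entered 1 limma 3.58.1 fit (R 4.3.3) with group as factor; two-sided p-values took the Benjamini-Hochberg adjustment over 21729 probe sets (threshold 0.05). Correlations used deviations from group means and 100000 permutations within groups (Python 3.11.15, two-sided). Scripts were tested on simulated data. Each of the 10 member probe sets was named, with up to 2 genes of smallest p per pathway list and comparison, and the 5 genes of most like pattern. Members and lists were chosen with earlier results of these data known. A gene in a list stands by its brightest probe set. Alternatives comprised filters, normalizations, priors, array weights, covariates, the replicate block and leaving out arrays. Replicate numbers were not taken to pair samples: of 27 same-numbered pairs, 12 had a correlation over 0.1 (range -0.24 to 0.34, median 0.08). Correlations of differently numbered samples are not given here, so these values do not settle whether the numbers pair samples.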

Additional observations from a re-analysis of the deposited data

Results flagged for a closer look

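Of 30 tests of a single extreme array (10 probe sets in 3 groups), 1 met Dixon's criterion at the 95% level, where chance gives about 1 in 20. Gabrb2 1369818_at in water replicate 9 read 7.03, against 7.92 in the next lowest and 8.67 in the highest water array and its gap to the next was 0.546 of the range. The same array was the least like its group (median correlation 0.979). The brighter Gabrb2 probe set was lowest in water replicate 2.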

How the results depend on the processing

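No member was called in any of the 3 comparisons or in the F test under any alternative run (15 a comparison, 14 for the F test, and 29 fits leaving out 1 array each). Not every probe set was tested in all 15: Gabrb2 1369818_at and Gabrd 1369048_at were in 14 and Gabrd 1395270_x_at in 13. The smallest adjusted p of any member over these fits of limma was 0.283 in continuous minus water, 0.839 in limited minus water, 0.342 in limited minus continuous and 0.409 in the F test. With the replicate block, 0 members were called. Over all probe sets, calls in continuous minus water were 33, but 11 with array SD in the model, 18 without water replicate 5 and 94 without water replicate 4; the cause was not tested. An unadjusted p under 0.05 was reached by Gabrd 1395270_x_at in 6 and by Gabrb1 in 3 fits of limited minus continuous, and by Gabrd 1369048_at in 1 of continuous minus water. With array SD in the model, continuous minus water of Gabrd 1395270_x_at was 0.03 in place of -0.09 and of Gabra2 -0.06 in place of 0.03. In the same fit it was 0.02 in place of 0.10 for Gabra5. For Gabrd 1395269_s_at it was -0.01 in place of -0.05, and for Gabrd 1369048_at -0.02 in place of -0.08. The pair Gabra4 and Gabra5 passed alone under all 4 alternatives for correlations, 1 of them (without water replicate 9) added after seeing the data.

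With 9 or 10 arrays a group, SEs of the members lay between 0.04 and 0.14, which limits what differences could be seen.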
